A study of Rattus norvegicus with 4 samples.

Results

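Of the 49 genes of the lysosome examined here, 46 had a probe that could be named on a 1-colour rat expression array, out of 16526 named genes with a value on every array. They were taken from a list of the proton pump, the lysosomal membrane, the cathepsins and the hydrolases by matching the accession of each gene probe to RefSeq symbols. The 46 genes were read by 51 probes, 41 genes by 1 probe and 5 by 2, and no probe was named for Gla, Naglu and Ids. The arrays held RNA of NR8383, a rat macrophage line started from lung lavage and grown as adherent and floating cells, at 20 passages, collected 4 h after ZnFe2O4 (zinc iron oxide, labelled NRCWE021) was added at 17 µg/mL. There is 1 group of 4 biological replicates, so the values describe exposed cells of 1 line, and the unexposed cultures were not analysed here. No rise or fall with exposure can be read from them, and no test between groups was possible.

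The lysosome is the acid compartment in which a macrophage breaks down what it has taken up. The V-ATPase pumps protons into it: the V1 sector splits ATP in the cytosol, and the V0 sector carries protons across the membrane. The low pH activates cathepsins, which cut proteins, and the hydrolases that take apart glycans, sulfated sugars and lipids. TFEB and TFE3 are transcription factors that bind a motif known as the CLEAR element, with CACGTG at its core, near the start of many of these genes.

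The 5 promoters printed here carry the 8-base form of that motif and show the sequence feature that a part of the list shares. RefSeq promoters (GRCr8; 250 bases before and 50 after the gene start) were found for 38 of the 49 genes. CACGTG, which reads the same on both strands, was found in 7 of the 38 (18.4%), against 2148 of 33469 promoters of the same length (6.42%). TCACGTGA, which contains it, was found in 5 of the 38 (13.2%) against 260 of all promoters (0.777%). The other 2 promoters with CACGTG were those of Glb1 and Idua. The windows are chr16:83075014-83075313 (minus strand) for Lamp1, chr12:6358008-6358307 (plus strand) for Mcoln1, chr1:206968772-206969071 (minus strand) for Ctsd, chr19:50357199-50357498 (minus strand) for Atp6v0d1 and chr10:17007107-17007406 (minus strand) for Atp6v0e1. Each is given 5′ to 3′ along its gene, with every CACGTG in capitals.
Lamp1: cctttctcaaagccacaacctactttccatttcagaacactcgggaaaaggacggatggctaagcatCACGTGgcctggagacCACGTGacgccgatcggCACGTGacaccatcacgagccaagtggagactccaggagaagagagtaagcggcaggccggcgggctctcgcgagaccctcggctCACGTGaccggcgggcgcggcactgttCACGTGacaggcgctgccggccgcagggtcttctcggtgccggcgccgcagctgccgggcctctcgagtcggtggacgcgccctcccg
Mcoln1: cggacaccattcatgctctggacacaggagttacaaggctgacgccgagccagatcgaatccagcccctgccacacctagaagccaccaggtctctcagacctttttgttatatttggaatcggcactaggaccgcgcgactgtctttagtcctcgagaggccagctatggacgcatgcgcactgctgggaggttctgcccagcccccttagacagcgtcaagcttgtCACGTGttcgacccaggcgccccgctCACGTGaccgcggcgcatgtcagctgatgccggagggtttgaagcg
Ctsd: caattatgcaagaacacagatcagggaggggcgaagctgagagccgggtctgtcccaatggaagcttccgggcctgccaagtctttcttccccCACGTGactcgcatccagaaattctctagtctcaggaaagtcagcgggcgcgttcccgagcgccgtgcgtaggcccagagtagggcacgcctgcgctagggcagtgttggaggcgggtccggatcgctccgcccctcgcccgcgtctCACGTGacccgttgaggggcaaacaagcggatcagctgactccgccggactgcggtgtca
Atp6v0d1: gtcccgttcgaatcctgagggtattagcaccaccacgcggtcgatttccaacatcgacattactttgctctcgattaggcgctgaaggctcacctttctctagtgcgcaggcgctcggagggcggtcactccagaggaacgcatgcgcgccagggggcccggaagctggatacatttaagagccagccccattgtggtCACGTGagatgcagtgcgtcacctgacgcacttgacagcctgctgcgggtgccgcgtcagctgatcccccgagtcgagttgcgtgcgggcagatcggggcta
Atp6v0e1: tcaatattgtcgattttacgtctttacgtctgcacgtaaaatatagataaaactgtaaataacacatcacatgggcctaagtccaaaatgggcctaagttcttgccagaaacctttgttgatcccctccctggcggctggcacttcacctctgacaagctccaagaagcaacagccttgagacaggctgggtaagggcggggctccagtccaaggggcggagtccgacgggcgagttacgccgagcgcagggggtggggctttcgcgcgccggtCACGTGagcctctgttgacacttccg
Lamp1 held 5 copies of CACGTG, whose first bases lay at -183, -167, -150, -65 and -38 from the gene start. Mcoln1 and Ctsd held 2 copies each. In Atp6v0e1 the single copy began at base 25 of the gene. A match of letters is a description of the window and says nothing of what is bound there in these cells.

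Most of the list was detected. A probe counted as detected where the scanner software marked it as well above background, and a gene where any of its probes did. On all 4 arrays 43 of 46 genes were detected, against 42.5% of all named genes, and on replicates 1 and 4 it was again 43, against 46.0%. On single arrays 43, 44, 44 and 43 genes were detected on replicates 1 to 4, where the share of all genes was 52.3%, 91.6%, 75.5% and 46.3%. The 3 exceptions were the protease gene Ctsk and the sulfatase genes Galns and Arsb. Ctsk and Galns were detected on no array, as were 6.37% of all genes, and Arsb on replicates 2 and 3 and neither of the others, as were 27.8%.

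Replicates 2 and 3 stood apart from the other arrays, and each result that rests on them is given with that in view. Median processed intensity was 13.5, 542, 133 and 7.38 units on replicates 1 to 4. The dimmest of the control RNAs added to each sample was marked as above background in 33 of 33 spots on replicate 2 and 32 of 32 on replicate 3, and in 0 of 34 and 0 of 35 on replicates 1 and 4. When a gene had to exceed that control by 3 SD of its spots, 29 of the 46 genes passed on all arrays, against 18.9% of all genes. On replicates 1 to 4 singly, 44, 29, 40 and 44 of them passed, against 63.4%, 24.3%, 32.8% and 53.5%. All 44 genes other than Ctsk and Arsb passed it on replicate 1. On all arrays 4 of 6 V0 genes, 6 of 8 V1 genes and 4 of 7 accessory and membrane genes passed it. The counts were 7 of 11 for proteases, 3 of 5 for glycosidases, 0 of 3 for sulfatases and 3 of 4 for lipid-handling genes. Both transcription factor genes passed it on all arrays. The spots of negative control probes had median levels of -4.68, -5.21, -4.09 and -3.76.

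**Figure D1:**
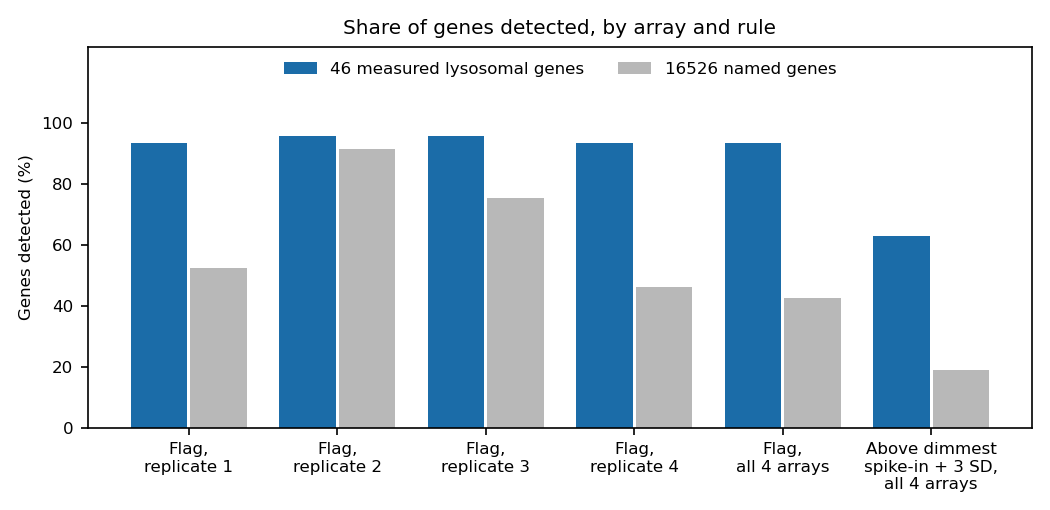
Share of genes detected (percent, y axis) among the 46 measured lysosomal genes (blue) and the 16526 named genes (grey), by array under the scanner flag, on all 4 arrays, and on all 4 arrays above the dimmest control RNA plus 3 SD. The lysosomal share lies between 93.5% and 95.7% under the flag, while the share of all genes runs from 42.5% to 91.6%; above the control RNA the shares are 63.0% and 18.9%.

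Every subunit of the proton pump on the list was detected on all 4 arrays, where 42.5% of all genes were. The counts were 6 of 6 in the V0 sector and 8 of 8 in the V1 sector. Levels are log2 processed intensity minus the 75th percentile of the array, and no probe is set against another. Atp6v0a1, the large subunit that forms the path of the proton, had levels of 3.09, 0.10, 1.42 and 2.90 on replicates 1 to 4 (1.88 ± 1.40, SD, n = 4). Atp6v0b, a proteolipid of the rotating ring, had levels of 6.91, 2.79, 4.42 and 7.12 (5.31 ± 2.08, n = 4). Atp6v0c, the main proteolipid of that ring, had levels of 6.84, 2.91, 4.52 and 6.71 (5.25 ± 1.89, n = 4). In all of them replicates 1 and 4 were close and high, replicate 3 lay below them and replicate 2 was lowest. That order belongs to the scaling: the median of replicate 1 minus replicate 2 over the 43 detected genes was 3.70 here, 0.35 with quantile normalization and -0.12 with scaling on control RNAs, against 3.00, 1.31 and -0.82 over all genes. The second probe of Atp6v0c gave the same order, at 6.32, 1.89, 3.88 and 6.17.

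The 3 remaining V0 genes were taken up after their values were seen. Atp6v0d1 encodes the widely used form of the subunit that joins the ring to the stalk, and its levels were 5.39, 1.85, 3.10 and 5.32. Atp6v0d2 encodes the form known from osteoclasts and some macrophages, with levels of 2.64, -0.22, 0.62 and 2.83. Both forms of this subunit were thus detected in the exposed line. Atp6v0e1, a small membrane subunit, had levels of 5.99, 2.07, 3.26 and 6.13.

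In the V1 sector, Atp6v1a, the subunit that splits ATP, had levels of 4.16, 0.08, 1.08 and 3.88 (2.30 ± 2.03, n = 4). Atp6v1b2, its partner in the hexamer, had levels of 6.48, 2.55, 4.42 and 6.55 (5.00 ± 1.91, n = 4). Atp6v1c1, a subunit of the stator, had levels of 4.14, 0.38, 0.92 and 4.19 (2.41 ± 2.04, n = 4). These follow the pattern of the V0 genes, with replicate 2 lowest. The second probe of Atp6v1a did not: it read 0.22, 0.06, -0.34 and 0.34, so that replicate 1 exceeded replicate 2 by 0.16 on it and by 4.09 on the first probe. The 2 probes of Atp6v1h, a regulatory subunit, exceeded replicate 2 by 3.70 and 3.60 on replicate 1.

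The other V1 genes, named after their values were seen, were Atp6v1d and Atp6v1f of the central stalk and Atp6v1e1 and Atp6v1g1 of the peripheral stalks. The mean of replicates 1 and 4 exceeded the level on replicate 2 in each of them. Atp6v1e1 had levels of 1.96, 0.56, 0.86 and 1.81 (1.30 ± 0.69, n = 4), and the SDs of the other V1 genes lay between 1.63 and 2.04. With scaling on control RNAs the SD of Atp6v1e1 was 1.35, and those of the other V1 genes lay between 0.30 and 0.85.

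Among accessory and membrane proteins, 7 of 7 genes were detected on all arrays, where 42.5% of all genes were. Atp6ap1, which helps to assemble the pump, had levels of 6.15, 2.15, 3.67 and 6.24 (4.55 ± 2.00, n = 4). Atp6ap2, also known as the prorenin receptor, had levels of 3.09, -0.30, 0.16 and 2.78 (1.43 ± 1.75, n = 4). Lamp1, a glycoprotein that lines the lysosomal membrane, had levels of 6.15, 2.13, 3.48 and 5.94 on its single probe. Replicate 2 was again the lowest and replicates 1 and 4 the highest in all of these. Lamp2, its relative, was read by 2 probes of 1 accession, at 5.11, 1.35, 2.25 and 5.42 on one and 2.66, 0.22, 0.36 and 2.36 on the other. The probes put replicates 1 and 4 in opposite order, by -0.32 and 0.31, both within the 5th to 95th percentile of all genes, -0.57 to 0.56.

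Further members of this group were named after their values were seen. Npc1, which moves cholesterol out of the lysosome, had levels of 2.80, -0.18, 0.45 and 2.78. Mcoln1, a cation channel of the lysosomal membrane, had levels of 4.26, 0.28, 1.87 and 4.15. Gpnmb, a glycoprotein of phagocytes that is often high under lysosomal stress, had levels of 8.70, 4.69, 5.84 and 8.81 (7.01 ± 2.07, n = 4). All 3 were detected on every array.

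**Figure D2:**
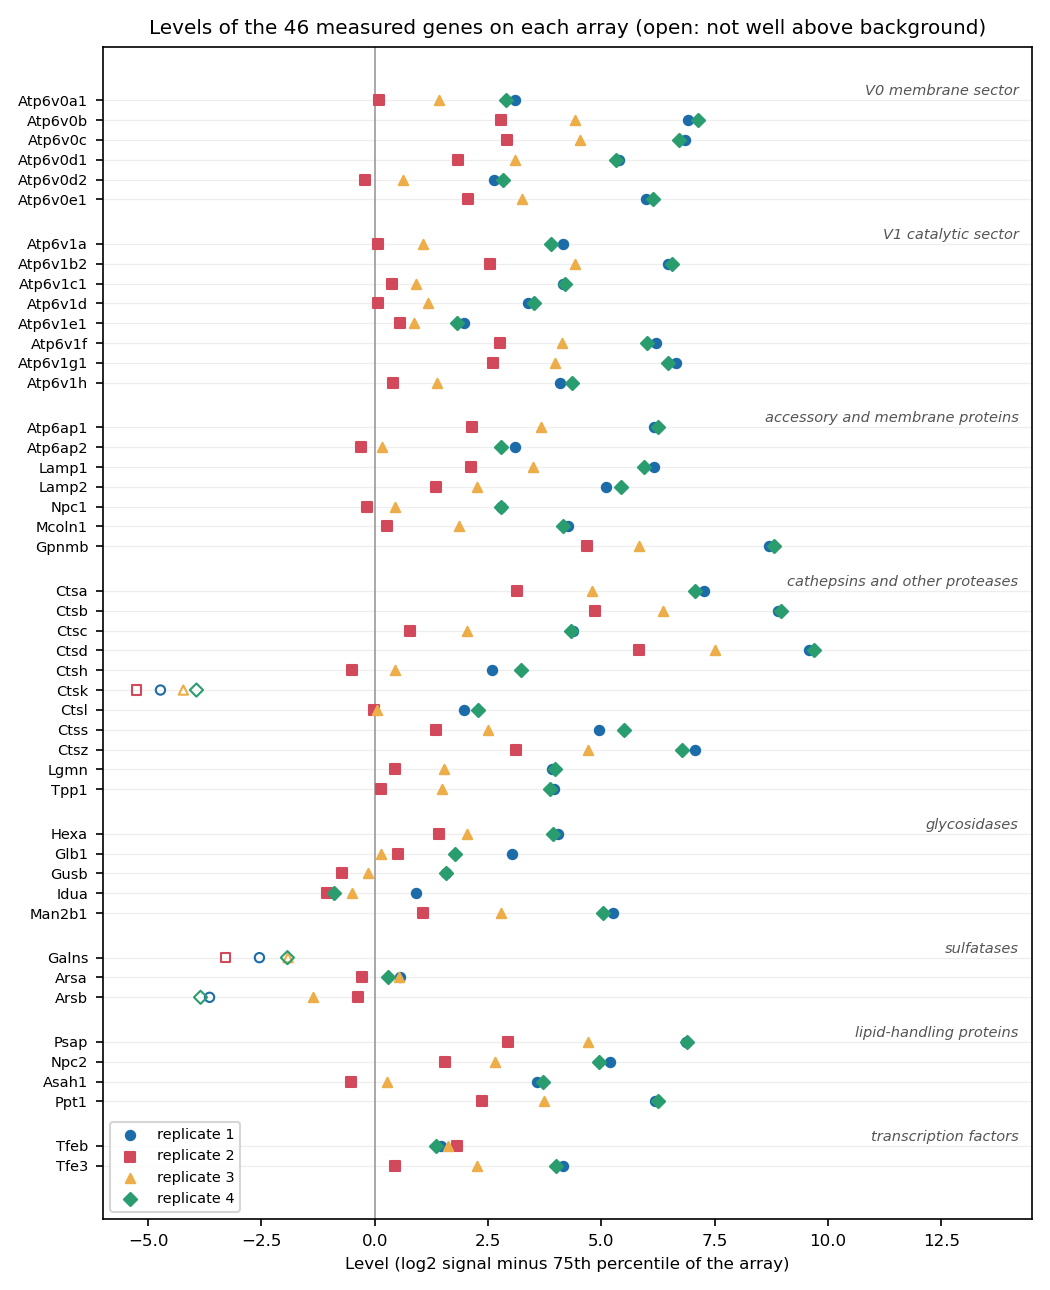
Level of each of the 46 measured genes (log2 signal minus the 75th percentile of the array, x axis) by role, with 1 marker per array and open markers where the chosen probe was not well above background. Under this scaling replicates 1 and 4 lie together to the right and replicate 2 to the left in most genes. That order changes with control RNA scaling. Tfeb has its 4 markers between 1.35 and 1.83, and Ctsk has all 4 open.

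Of 11 genes for cathepsins and other proteases, 10 were detected on all arrays, where 42.5% of all genes were. Ctsa, a carboxypeptidase that also shields other hydrolases, had levels of 7.27, 3.15, 4.80 and 7.06 (5.57 ± 1.96, n = 4). Ctsb, a cysteine protease, had levels of 8.90, 4.85, 6.37 and 8.96 (7.27 ± 2.01, n = 4). Ctsc, which activates serine proteases of granules, had levels of 4.38, 0.79, 2.03 and 4.32 (2.88 ± 1.77, n = 4). The order of the arrays was that of the pump genes. Ctsh, an aminopeptidase, read 2.59, -0.49, 0.44 and 3.23, and Ctss, a protease of antigen processing, read 4.95, 1.35, 2.50 and 5.51. Among the 43 detected genes these had the largest excess on replicate 4 over replicate 1 under this scaling, 0.65 and 0.56. With scaling on control RNAs, replicate 1 minus replicate 4 was -0.05 for Ctsh and 0.03 for Ctss. Under that scaling the median over all genes was 0.59 and the 5th percentile 0.02.

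Ctsk, the collagen-cutting cathepsin of the osteoclast, was the exception. The levels of Ctsk were -4.73, -5.26, -4.22 and -3.93, each just below the median negative control of its array. Ctsk was also undetected on replicate 2, where 91.6% of all genes were detected. Of 7 listed markers of the osteoclast 5 were measured, and Dcstamp and Ocstamp had no value here. On all arrays 4 of the 5 were detected, namely Calcr, Nfatc1, Mmp9 and Acp5, where 42.5% of all genes were. Tnfrsf11a was missing on replicate 4. Above the dimmest control RNA plus 3 SD on all arrays, 1 of the 5 passed, against 18.9% of all genes. Ctsl, Ctsz, Lgmn, Tpp1 and Ctsd were detected on every array, and their SDs lay between 1.22 and 1.87.

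Glycosidases were represented by 5 measured genes, all detected on every array, where 42.5% of all genes were. Hexa, a subunit of hexosaminidase, had levels of 4.05, 1.42, 2.04 and 3.94 (2.86 ± 1.33, n = 4). Glb1, the acid beta-galactosidase, had levels of 3.03, 0.51, 0.14 and 1.78 (1.37 ± 1.31, n = 4). Gusb, the beta-glucuronidase, had levels of 1.58, -0.72, -0.16 and 1.57 (0.57 ± 1.18, n = 4). In Glb1 replicate 3, not replicate 2, was lowest under this scaling, and replicates 1 and 4 were apart. Those levels are means of 2 spots that did not agree. The first spot read 2.29, 0.20, -1.37 and -0.04, and the second 3.78, 0.82, 1.66 and 3.60. On the second spot replicate 2 was lowest and replicates 1 and 4 were close. Idua, which acts on dermatan and heparan sulfate, read 0.91, -1.05, -0.50 and -0.89, so that replicate 4 lay with replicates 2 and 3. That grouping belongs to the scaling: with scaling on control RNAs Idua read -0.26, 1.60, -0.22 and -2.66. Man2b1, an alpha-mannosidase named after its values were seen, read 5.27, 1.07, 2.78 and 5.04.

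Of 3 measured sulfatase genes 1 was detected on all arrays, where 42.5% of all genes were. Arsa, which acts on sulfatide, had levels of 0.56, -0.29, 0.53 and 0.30 (0.27 ± 0.39, n = 4). Galns, which acts on keratan sulfate, read -2.54, -3.29, -1.91 and -1.93. This was above the median negative control on each array, and the second scanner flag, for a signal that is positive and significant, was set for Galns on all 4. Arsb, which acts on dermatan sulfate, read -3.64, -0.38, -1.36 and -3.84. Its chosen probe was detected on replicates 2 and 3, the arrays on which the dimmest control RNA was also marked as above background. The second flag was set for Arsb on 3 arrays. Whether Arsb is present at a low level was not tested.

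Lipid-handling genes were all detected on all arrays, 4 of 4, where 42.5% of all genes were. Psap, the precursor of the saposins that present lipids to hydrolases, had levels of 6.87, 2.95, 4.71 and 6.89 (5.35 ± 1.90, n = 4). Npc2, a soluble carrier of cholesterol, had levels of 5.19, 1.55, 2.66 and 4.94 (3.59 ± 1.77, n = 4). Asah1, the acid ceramidase, had levels of 3.59, -0.53, 0.27 and 3.72 (1.76 ± 2.21, n = 4). That SD was the largest of the 43 genes under this scaling. Ppt1, which removes palmitate from proteins and was named after its values were seen, read 6.17, 2.36, 3.74 and 6.26.

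The transcription factors were both detected on every array, where 42.5% of all genes were. Tfeb had levels of 1.47, 1.83, 1.62 and 1.35 (1.56 ± 0.21, n = 4), so that replicate 2 was highest. Tfe3 had levels of 4.14, 0.45, 2.26 and 3.99 on its brighter probe (2.71 ± 1.73, n = 4), with replicate 2 lowest. The second probe of Tfe3 read -1.88, -0.52, -0.96 and -1.90 and was not well above background on replicate 4. On that probe replicate 2 was highest, as for Tfeb. With scaling on control RNAs replicate 2 was also highest on the brighter probe, at 2.98, 3.10, 2.54 and 2.23. That is common under this scaling, where the median of replicate 1 minus replicate 2 was -0.12 over the 43 genes and -0.82 over all genes. Of the 5 genes with 2 probes, Tfe3 was the only one whose probes disagreed on detection.

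Replicates 1 and 4 were compared gene by gene. Under the scaling used here the median of replicate 1 minus replicate 4 was 0.06 over the 43 genes and -0.01 over 6923 genes whose chosen probe was detected on all arrays. With scaling on control RNAs these medians were 0.66 and 0.59. The median absolute difference was 0.15 against 0.20 here. Among the 16 genes of the pump and its accessory proteins the difference ran from -0.26 to 0.31, with 8 genes higher on each array, whereas with scaling on control RNAs it ran from 0.34 for Atp6v1h to 0.91 for Atp6ap2, with all 16 higher on replicate 1. A difference past 2-fold was found in 2 of 43 genes, against 1.95% of 7554 genes detected on both arrays. Both members were higher on replicate 1, as were 1.10% of all genes, and 0 members were past 2-fold on the side of replicate 4, as were 0.847%. The 2 members were the glycosidase genes Idua and Glb1.

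Idua was higher on replicate 1 by 1.80. Its single spot had processed intensities of 166 on replicate 1 and 24.4 on replicate 4, with scanner errors of 17.0 and 4.19. The 5 gene spots within 2 rows and columns of it that were detected on both arrays had a median difference of -0.08. With quantile normalization the difference of Idua was 1.09, and with scaling on control RNAs 2.40. Glb1 was higher on replicate 1 by 1.25 as the mean of 2 spots, which did not agree. The first spot differed by 2.33, and 2 detected spots near it had a median of 2.27. The second spot differed by 0.18, and 4 spots near it had a median of 0.29. The 2-fold call of Glb1 rests on the first spot, and its difference was 0.85 with quantile normalization and 1.85 with scaling on control RNAs.

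**Figure D3:**
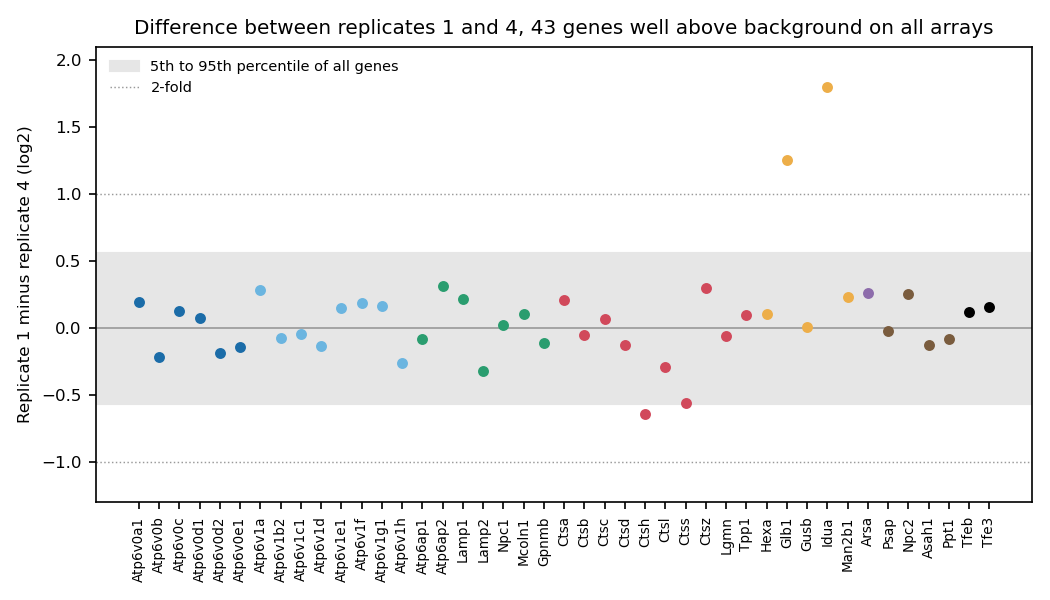
Replicate 1 minus replicate 4 (log2, y axis) for the 43 genes well above background on all arrays, in order of role; the grey band holds the 5th to 95th percentile of 6923 genes, from -0.57 to 0.56, and dotted lines mark 2-fold. Idua at 1.80 and Glb1 at 1.25 lie above the upper line, and Ctsh at -0.65 lies just below the band.

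Repeat spots give the precision within an array. The probes of Ctsa, Ctsd, Ctsl, Man2b1 and Gpnmb are each printed 10 times, and 7 to 10 spots per array were kept. The SD between spots ran from 0.06 to 0.13 for Ctsd and from 0.12 to 0.23 for Ctsl. For Gpnmb it ran from 0.07 to 0.15. The SD between arrays, which are separate cultures, depends on the scaling: for Ctsd it was 1.84 here, 0.34 with scaling on control RNAs and 0.047 with quantile normalization. Quantile normalization gives probes of the same rank the same value on every array. The SD of 0.047 therefore cannot be set against the SD between spots. Between replicates 1 and 4, where 8 and 9 kept spots of Ctsl ran from 1.82 to 2.16 and from 2.06 to 2.55, the ranges overlapped. The 2 spots of Glb1 had an SD of 1.05, 0.44, 2.15 and 2.57 on replicates 1 to 4.

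**Figure D4:**
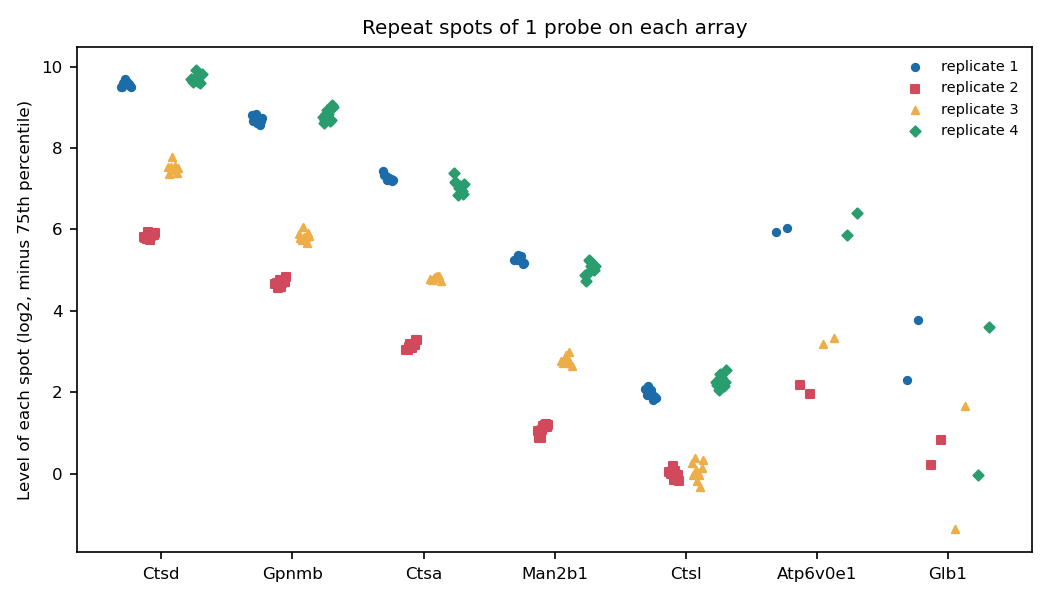
Level of each kept spot (log2, y axis) of the 7 chosen probes printed more than once, by gene and array. Spots of the 5 probes with up to 10 kept spots lie close together on every array. The 2 spots of Glb1 stand furthest apart on replicate 4, at -0.04 and 3.60, and least on replicate 2, at 0.20 and 0.82.

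On replicates 2 and 3 the level of a member mostly followed that of other genes of like level, taken as all genes within 0.25 log2 units of it on the mean of replicates 1 and 4. Over the 43 genes the median departure from the median of such genes was -0.03 on replicate 2 and -0.01 on replicate 3. Such departures do not depend on the offset given to an array. For genes of low level the curve was flat: the median of like genes on replicate 2 was -0.66 at the level of Idua, -0.63 at that of Ctsl, 0.74 at that of Ctsc and 5.82 at that of Ctsd.

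Tfeb departed most. On replicate 2 it lay 2.42 above the median of 528 genes of like level, and on replicate 3 it lay 1.78 above. Atp6v1e1 was the other member more than 1 log2 unit above on replicate 2, by 1.20. These 2 of 43 genes compare with 8.70% of all genes, and 0 members were as far below, against 6.80%. On replicate 3, Tfeb and Arsa lay more than 1 unit above, Arsa by 1.10, against 4.22% of all genes. Asah1 lay 1.10 below, 1 of 43 against 4.93%. Tfeb was also the 1 member with a higher level on replicate 2 than on replicate 1, as were 8.55% of all genes.

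The small SD of Tfeb belongs to the scaling. It was 0.21 with the 75th percentile, the smallest of the 43, but 1.51 with quantile normalization and 2.17 with scaling on control RNAs, where it was the largest. The median SD of the list changed as well, from 1.86 with the 75th percentile to 0.45 with quantile normalization and 0.57 with scaling on control RNAs. Over all 6923 genes it was 1.55, 0.86 and 0.80 in the same order. SDs therefore do not rank these genes by their spread between cultures. In RNA of whole cultures, fewer cells and less RNA per cell cannot be told apart.

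**Figure D5:**
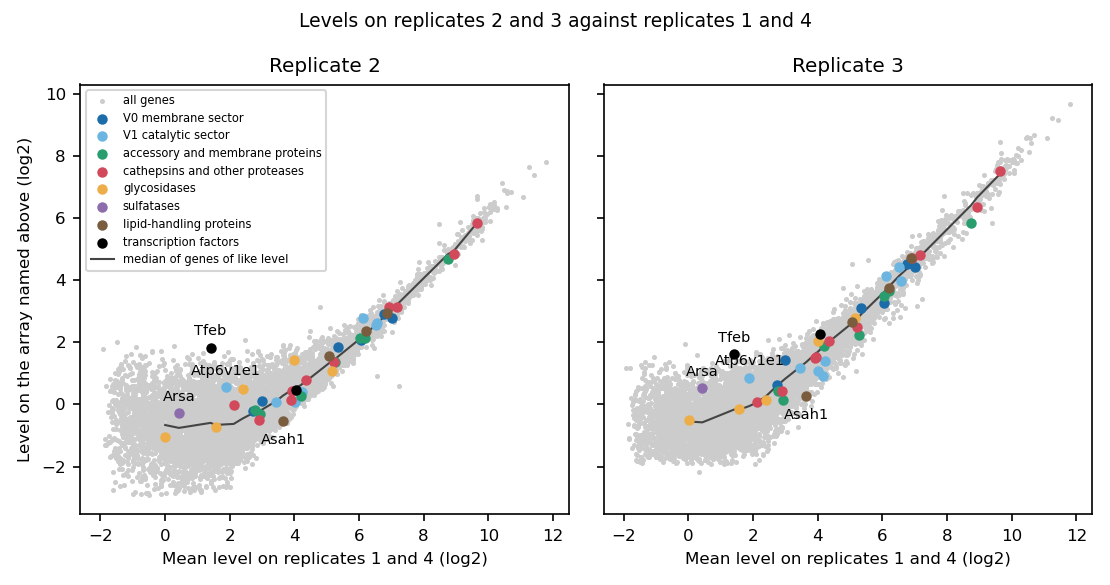
Level on replicate 2 (left) and replicate 3 (right) against the mean level on replicates 1 and 4, all log2, for 6923 genes (grey) and the 43 lysosomal genes (coloured by role); the line joins the median of genes of like level at each member. Members lie near the line, which is flat at low levels; Tfeb lies 2.42 above it on replicate 2 and 1.78 above on replicate 3, and Asah1 1.10 below on replicate 3.

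Of 58 further lysosomal genes measured outside the list, 47 were detected on all arrays, where 42.5% of all genes were, and 48 on replicates 1 and 4, where 46.0% were. Genes for delivery and membrane proteins, among them Igf2r, which carries enzymes to the lysosome, were detected in 17 of 17 cases, further hydrolases in 16 of 20 and control genes in 10 of 10. Above the dimmest control RNA plus 3 SD on all arrays, 25 of the 58 passed, against 18.9% of all genes. The counts were 5 of 17 for delivery and membrane proteins, 10 of 20 for further hydrolases and 7 of 10 for control genes. V-ATPase paralogs, which serve other tissues or special membranes, were detected on all arrays in 2 of 8 cases, Tcirg1 and Atp6v0e2. Tcirg1, the a3 subunit of phagocytes and osteoclasts, had levels of 6.52, 2.37, 4.35 and 6.39. Atp6v0a2 was found on replicates 1, 2 and 4. Among those of the 58 whose chosen probe was detected on replicates 1 and 4, 1 was past 2-fold between these arrays. Over all genes this was 1.95% of 7554. The gene was Mitf, a relative of Tfeb, whose brighter probe of 2 read 3.03, 2.07, 2.07 and 1.92.

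Markers of the macrophage were detected on all arrays for 7 of 9 measured genes, where 42.5% of all genes were. Among them was Cd68, at 6.73, 3.17, 5.11 and 7.03. Above the dimmest control RNA plus 3 SD on all arrays, 2 of the 9 macrophage markers passed, against 18.9% of all genes. Marco was missing on replicates 1 and 4, and Adgre1, a defining macrophage gene in the mouse, was detected on no array. No epithelial marker of 7, fibroblast marker of 4 or T cell marker of 4 was detected on all arrays. On replicate 2, where 91.6% of all genes were detected, the counts were 6, 4 and 4. Of 3 neutrophil and mast cell markers, S100a8 was detected on all arrays.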

How the data were processed

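RNA of 4 cultures was hybridised to 1-colour (Cy3) Agilent arrays, and the authors deposited scanner intensity values made with Agilent Feature Extraction 11.0.1.1, per the file headers, in which the software took off background and evened out trends across each array. No normalization between arrays is recorded there. The deposited value table equals the median pixel intensity on all 62976 spots of each array and was not used further. Control spots and outlier spots were left out, spots were averaged as log2, 213 probes with no spot left were dropped, and the 75th percentile of each array was subtracted. Probes were named by unversioned accession through RefSeq (GRCr8); the probe with the highest mean signal stands for a gene. No gene spot was saturated; 4 arrays limit the precision. Alternatives were other flags, normexp (limma 3.58.1, offset 50, on median pixel signal), other scalings, all probes, all spots, all members and left-out replicates. Procedures were tested on simulated data. The setting with replicates 2 and 3 alone was added after seeing the data. Members and lists were chosen with earlier results of these data known. By rule, array values are given for the first 3 measured members of each role, members not detected on replicates 1 and 4 or with disagreeing probes, and the 5 of largest difference between replicates 1 and 4.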

Additional observations from a re-analysis of the deposited data

How the results depend on the processing

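The count of 43 detected genes was 42 when all probes had to be detected, 44 with the other scanner flag and 29 above the dimmest control RNA on all arrays; without each replicate it was 43. On replicates 1 and 4 the range was 42 to 44. The median level of the 43 genes was 2.86, against 0.039 with the percentile taken over detected probes, which moves its zero, and it ran from 2.38 to 3.47 without 1 replicate. The median SD of 1.86 was 1.40 with normexp, 0.37 with the percentile over detected probes, 0.45 with quantile normalization, 0.57 with control RNA scaling, 0.11 on replicates 1 and 4 alone and 0.81 on replicates 2 and 3 alone, an alternative chosen after seeing the data. Without 1 replicate it ran from 1.37, without replicate 2, to 2.18; the cause was not tested. The median of replicate 1 minus replicate 4 was 0.06, and 0.66 with control RNA scaling, whose median over all genes was 0.59. Of the levels of 43 genes, 1 moved by more than its SD under the main scaling with quantile normalization, where shifts ran from -0.75 to 0.52. Those SDs are themselves large under the main scaling, so this count says little about how stable the levels are. When all probes were averaged, only the 5 genes with 2 probes could change, and 1 of them moved by more than its SD. No paired analysis was possible because there is 1 group. Low signal limits Ctsk, Galns and Arsb.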
